A study of Mus musculus with 6 samples.

Results

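The genes that release calcium ions into the muscle cytoplasm and take them up again were followed here, 10 of the 22935 genes placed on NCBI Build 37 (mm9): Cacna1s, Cacng1, Ryr1, Ryr3, Casq1, Casq2, Atp2a1, Atp2a2, Sln and Pln. They were chosen by name, as genes of calcium release and uptake. The study mapped chromatin in primary myotubes, which are the multinucleated cells that muscle precursors form by fusion, with 2 libraries per group: chromatin precipitated with an antibody against the transcription factor Sox6, chromatin precipitated with an antibody against a phosphorylated form of RNA polymerase II (Pol II), and input chromatin that saw no antibody. All 6 libraries came from wild type C57BL/6 myoblasts of fetal limb muscle (E18.5, embryonic age in days), at passage 17, kept for 48 hours in DMEM with 2% horse serum to induce fusion. The groups differ in antibody only, so every comparison below is of a precipitate with input in one cell state, and no library lacks Sox6.

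In skeletal muscle, an action potential moves the voltage sensor in the T-tubule membrane, and the sensor opens the calcium release channel of the sarcoplasmic reticulum that faces it. Calcium stored on calsequestrin then flows into the cytoplasm and starts contraction, and calcium pumps of the sarcoplasmic reticulum return it to the store, held back by small membrane peptides that bind the pumps. Several of these proteins come in a form typical of fast fibers and a form typical of slow fibers and heart, and Sox6 is known in muscle as a repressor of slow fiber genes.

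Sox6 peaks, as the authors called them, were found in or within 20 kb of 4 of the 10 genes, and 1 of these peaks was in the list common to both replicates. Of all genes, 4.34% had such a peak in the common list, 9.66% in the replicate 1 list and 6.70% in the replicate 2 list. The share for the 3 lists together was not computed. The common peak lay 1547 bp before the start of Sln, which encodes sarcolipin, a pump inhibitor. The 7 others came from the lists of the single replicates, 5 in introns of Cacna1s, Ryr3 and Casq2 and 2 before Sln. Those before Sln, 1 from each replicate, both overlap the interval of the common peak, so this site was called in both replicates. The plus strand of NCBI Build 37 at the centers of 4 of these peaks is shown over 200 bp so that the bases under the Sln peak can be set beside those under the intronic ones. Capitals mark the letters ACAAAG or ACAATG, which Sox proteins recognize, and the E-box letters CAGCTG or CAGGTG, which muscle basic helix-loop-helix factors recognize, each on either strand.
Sln, common list, chr9:53696411-53696610: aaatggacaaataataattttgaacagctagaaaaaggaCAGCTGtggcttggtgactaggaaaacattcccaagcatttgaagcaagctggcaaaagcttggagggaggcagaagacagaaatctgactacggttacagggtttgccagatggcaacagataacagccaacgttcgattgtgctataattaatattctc
Casq2 intron 1, replicate 2 list, chr3:101904321-101904520: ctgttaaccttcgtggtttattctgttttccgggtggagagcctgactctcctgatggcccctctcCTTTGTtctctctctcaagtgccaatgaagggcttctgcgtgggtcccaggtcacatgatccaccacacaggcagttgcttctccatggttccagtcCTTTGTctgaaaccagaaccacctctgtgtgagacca
Ryr3 intron 1, replicate 1 list, chr2:113002911-113003110: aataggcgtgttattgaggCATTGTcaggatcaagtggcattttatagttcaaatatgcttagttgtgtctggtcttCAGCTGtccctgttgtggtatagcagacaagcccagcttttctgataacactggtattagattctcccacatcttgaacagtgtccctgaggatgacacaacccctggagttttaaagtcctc
Cacna1s intron 2, replicate 1 list, chr1:137957791-137957990: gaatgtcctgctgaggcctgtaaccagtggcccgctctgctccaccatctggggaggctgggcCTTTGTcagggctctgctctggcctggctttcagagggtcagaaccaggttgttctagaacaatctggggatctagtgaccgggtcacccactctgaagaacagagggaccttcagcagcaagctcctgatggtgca

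The window at Sln held no Sox match, 1 E-box (CAGCTG) and, on either strand, 1 match each to the Runx letters CCACA and to the Tead letters GGAATG. None of these matches lies inside the called interval of the common peak, the interval of the replicate 1 peak at Sln held 1 of each of the 3, and the window of the replicate 2 peak held 0. Among the common peaks, windows of the same length held a Sox match in 58.4%, an E-box in 66.4%, CCACA in 68.9% and GGAATG in 28.4%, so Sln was 1 of 443 common peaks without the Sox letters. In 2132 windows placed 2 kb to either side of the common peaks the shares were 26.2%, 22.1%, 45.7% and 9.80%. At the single-replicate peaks shown, the Casq2 window held 2 Sox matches and no E-box, the Ryr3 window 1 of each (0 inside the called interval), and the Cacna1s window 1 Sox match and no E-box. The windows of the 2 other Casq2 peaks, which are not shown, held 0 Sox matches and 0 E-boxes. A Sox match was present in 46.8% of the windows of the replicate 1 list and in 51.2% of those of the replicate 2 list. A match of letters is a description of the sequence and was not tested for binding.

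The voltage sensor comes first in the path. Cacna1s, the pore and voltage-sensing subunit of the muscle calcium channel, spans 66.9 kb and 44 exons on chromosome 1 (137949478 to 138016399, plus strand). Cacng1, its muscle-specific gamma subunit, spans 13.3 kb on chromosome 11 (107564532 to 107577836, minus strand). Levels below are reads between the ends of the gene per kilobase and per 1000000 mapped reads (RPKM).

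Pol II over Cacna1s stood at 8.37 RPKM in replicate 1 and 7.98 in replicate 2, against input levels of 0.632 and 0.702. Cacng1 had the highest Pol II level of the 10 genes, with 15.6 and 15.2 RPKM against input levels of 0.790 and 0.877. Both Pol II libraries lay far above both inputs at either gene. On the log2 scale, 0.5 reads were added to each count. Pol II exceeded input by 3.62 ± 0.08 at Cacna1s (limma, adjusted p = 1.65e-08) and by 4.21 ± 0.10 at Cacng1 (limma, adjusted p = 2.57e-08). Values after ± are the SE of limma (2 libraries per group), which rests on a variance shared among genes. Cacna1s and Cacng1 ranked 274 and 121 among the 19836 genes with at least 20 input reads.

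Ryr1 and Ryr3 encode ryanodine receptors, the release channels. Ryr1 is the form that skeletal muscle contraction depends on and covers 121.8 kb and 106 exons of chromosome 7 (29788359 to 29910170, minus strand). Ryr3 is a minor form, found in developing muscle and in other tissues, and covers 585.7 kb of chromosome 2 (112471537 to 113057208, minus strand). Pol II over Ryr1 was 7.20 RPKM in replicate 1 and 7.10 in replicate 2, and input was 0.514 and 0.546, a log2 ratio of 3.75 ± 0.07 (limma, adjusted p = 1.08e-08). Pol II over Ryr3 was 0.326 RPKM in both replicates, below the input levels of 0.479 and 0.463.

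Within the Pol II libraries Ryr1 carried 22.1 times as many reads per kilobase as Ryr3 in replicate 1 and 21.8 times as many in replicate 2, whereas in the inputs this ratio was 1.07 and 1.18. The log2 ratio of Ryr3 was -0.53 ± 0.06 (limma, adjusted p = 0.000122), and its rank was 13039 of 19836. The sign of that value rests on the scaling: with libraries scaled to reads outside the called peaks it was 0.73 (limma, adjusted p = 1.62e-05), under which the median of all genes moved from 0.16 to 1.42. Under both scalings Ryr3 lay below the median of all genes. Ryr3 overlaps Aven, Ryr1 overlaps Gm16799 and Mir1963, Casq1 overlaps Gm17224 and Atp2a1 overlaps Rabep2, and the reads carry no mark of the transcribed strand.

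Calsequestrin is the calcium store protein of the sarcoplasmic reticulum, with Casq1 the form of fast fibers and Casq2 the form of heart and slow fibers. Casq1 lies on chromosome 1 (174140025 to 174150026, minus strand) and Casq2 spans 60.1 kb of chromosome 3 (101890338 to 101950437, plus strand). Pol II over Casq1 was 6.30 and 7.67 RPKM against inputs of 0.619 and 0.664, with a log2 ratio of 3.44 ± 0.15 (limma, adjusted p = 4.05e-07). Pol II over Casq2 was 6.10 and 6.70 RPKM against inputs of 0.739 and 0.748, with a log2 ratio of 3.10 ± 0.08 (limma, adjusted p = 2.92e-08). The fast and the slow form thus carried Pol II at levels whose replicates overlap, with Casq1 to Casq2 ratios of 1.03 and 1.14 per kilobase.

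Atp2a1 and Atp2a2 encode the calcium pumps SERCA1, of fast fibers, and SERCA2, of slow fibers, heart and most other cells. Atp2a1 lies on chromosome 7 (133589372 to 133606622, minus strand, 23 exons) and Atp2a2 on chromosome 5 (122903531 to 122952183, minus strand, 21 exons). Pol II over Atp2a1 was 14.9 and 14.6 RPKM against inputs of 0.670 and 0.717. Its log2 ratio of 4.41 ± 0.10 was the highest of the 10 genes and ranked 90 of 19836 (limma, adjusted p = 1.48e-08). Pol II over Atp2a2 was 3.71 and 4.11 RPKM against inputs of 0.697 and 0.663, with a log2 ratio of 2.52 ± 0.09 and rank 1107 (limma, adjusted p = 1.51e-07). The fast pump therefore carried 4.01 and 3.56 times as much Pol II per kilobase as the slow pump in the 2 replicates, against 0.962 and 1.08 in the inputs.

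Sln and Pln, which encode the pump inhibitors sarcolipin and phospholamban, had little Pol II. Sln, 3.6 kb long on chromosome 9 (53698058 to 53701651, plus strand), held 6 Pol II reads in replicate 1 and 8 in replicate 2, or 1.08 and 0.806 RPKM, and the inputs were at 0.671 and 0.826. Pln, 8.3 kb long on chromosome 10 (53057492 to 53065805, plus strand), held 13 and 24 Pol II reads, or 1.02 and 1.05 RPKM, against inputs of 0.887 and 0.689. At Sln the Pol II and input values overlap, and at Pln both Pol II values lie just above both inputs. Neither log2 ratio passed the test, with 0.42 ± 0.37 for Sln (limma, adjusted p = 0.342) and 0.44 ± 0.24 for Pln (limma, adjusted p = 0.138). With scaling to reads outside peaks they were 1.68 and 1.69 and passed, near the shifted median of 1.42. Pln also passed without Pol II replicate 1 or 2 (limma, adjusted p = 0.0369 and 0.0476) and Sln without Pol II replicate 2 (limma, adjusted p = 0.0353), where the lone Pol II library is assumed to vary like the inputs. Pln lies inside Gm9766 of the opposite strand and has no stretch of its own that could be counted apart from it.

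**Figure D1:**
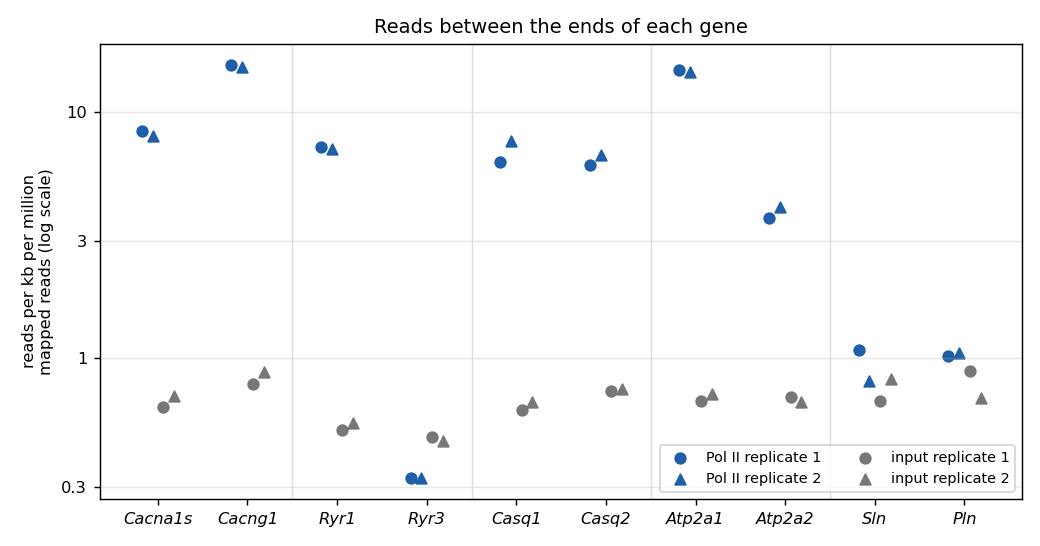
RPKM (log axis) over each of the 10 genes, with a point for each Pol II library (blue) and each input library (grey), circles for replicate 1 and triangles for replicate 2. Pol II stands between 3.71 and 15.6 at 7 genes, within reach of input at Sln and Pln, and at 0.326 in both libraries of Ryr3, below the inputs.

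In all, 7 of the 10 genes had more Pol II than input over the gene body and 1 had less, where 40.4% of all 19836 genes had more and 25.6% had less. With libraries scaled to reads outside peaks the numbers of genes with more and with less Pol II went from 8021 and 5077 to 12740 and 498. Among the 10 genes they went from 7 and 1 to 10 and 0, so this division holds for scaling to mapped reads. The median log2 ratio of the 10 genes was 3.27, and that of all genes 0.16. In the order of Pol II level per kilobase, Cacng1 and Atp2a1 led, then Cacna1s, Ryr1, Casq1 and Casq2, then Atp2a2, and last Pln, Sln and Ryr3. The replicates of Casq1 overlap those of Ryr1 and Casq2 in this order, and those of Sln overlap those of Pln, while the other neighbors did not overlap. In a culture, fewer cells with Pol II on a gene and less Pol II per cell cannot be told apart.

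Set against Actb, the beta-actin gene used as a reference, Pol II over Cacng1 reached 59.0% and 42.6% of the Actb level, over Atp2a1 56.3% and 40.9%, and over Atp2a2 14.1% and 11.5%. Ryr3 stood at 1.23% and 0.91%, Sln at 4.11% and 2.25%, and Pln at 3.85% and 2.92%. Actb itself was at 26.4 RPKM in replicate 1 and 35.8 in replicate 2, and the percentages were lower in replicate 2 at each of these genes. Counting reads in called Pol II peaks only, 3 genes (Cacng1, Atp2a1 and Cacna1s) were above 10% of Actb in both replicates, against 7 when every read in the gene was counted. The share of all genes above that level was not computed under either count, so these numbers describe the 10 genes only.

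The Pol II peaks that the authors called gave the same division of the genes as the test with scaling to mapped reads. They were called from these same reads, so they are no independent evidence for it, and the share of all genes with such a peak was not computed. In replicates 1 and 2, Ryr1 held 54 and 78 peaks, Cacna1s 34 and 47, Casq2 20 and 30, Cacng1 8 and 4, Atp2a1 7 and 7, Casq1 3 and 8, and Atp2a2 3 and 13. These peaks covered 69.9% and 82.9% of Atp2a1 and 63.5% and 84.4% of Cacng1, but 0.417% and 6.15% of Atp2a2. The replicate 1 peaks of Atp2a2 held only 3 reads in all. Ryr3, Sln and Pln held no peak in either replicate.

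At the start sites, counted as reads per 1000000 mapped reads (RPM) within 1 kb on each side, Atp2a1 was the highest, with 53.9 RPM in replicate 1 and 55.8 in replicate 2 and inputs of 1.59 and 1.24. Ryr1 followed with 33.8 and 31.9 RPM, Cacna1s with 34.4 and 23.2, and Casq2 with 20.1 and 22.8. Cacng1 held 21 reads in replicate 1 and 83 in replicate 2, a larger gap than the depths of the libraries give. Casq1 stood at 8.45 and 9.41 RPM and Atp2a2 at 3.90 and 4.34, with inputs of 0.637 and 0.742 for the latter. At all 7 both Pol II libraries lay above both inputs.

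The same 7 genes passed the test at the start, where 45.0% of 19277 genes did, with log2 ratios from 2.62 ± 0.49 at Atp2a2 (limma, adjusted p = 2.99e-07) to 5.27 ± 0.25 at Atp2a1 (limma, adjusted p = 7.01e-96). Ryr3 held 1 and 4 Pol II reads (log2 ratio 0.66 ± 0.73), Sln 2 and 1 (-0.35 ± 0.70) and Pln 5 and 4 (0.29 ± 0.42). None of these passed with scaling to mapped reads and all libraries. Over the alternatives their ratios ranged from -0.37 to 1.91 at Ryr3, -1.14 to 0.91 at Sln and -0.28 to 1.55 at Pln. Each passed under some of the alternatives. With scaling to reads outside peaks, 61.8% of all genes had more Pol II than input at the start. When all libraries were thinned to one depth, 4 of the 7 passed, where 8.26% of the 19277 genes did. Cacna1s, Cacng1 and Atp2a2 did not pass then (limma, adjusted p = 0.108, 0.0701 and 0.11).

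Pol II was not spread alike along these genes. The density around the start divided by the density from 1 kb after the start to the end was 2.40 and 2.30 at Ryr1, 1.97 and 2.04 at Atp2a1, 1.70 and 1.74 at Casq2 and 2.09 and 1.47 at Cacna1s. At Casq1 it was 0.650 and 0.600, at Atp2a2 0.520 in both replicates, and at Cacng1 0.429 in replicate 1 and 1.03 in replicate 2. The median over 7737 genes with more Pol II than input was 1.48 and 1.44. The start of Ryr1 was also richer in input reads (1.87 and 1.63) and that of Atp2a2 poorer (0.449 and 0.554), so both features were also seen without an antibody.

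With each gene divided into 5 equal stretches, Atp2a1 carried 28.6 and 27.4 RPKM in its first stretch and 8.67 and 9.55 in its last. Pol II also stood at 14.7 and 13.3 RPKM over the 5 kb before its annotated start, where input was 0.783 and 0.759. Sh2b1 lies within 20 kb of Atp2a1, and Pol II of a neighboring gene cannot be told apart there. Cacng1 carried 22.7 and 26.8 RPKM in the first stretch and 13.7 and 15.0 in the last, although its window around the start was not denser than the rest of the gene in replicate 1. Casq1 was denser at its end, with 5.20 and 6.52 RPKM in the first stretch and 8.77 and 12.3 in the last. Gm17224 overlaps Casq1, and Atp1a4, Pea15a and Dcaf8 lie within 20 kb of it, so Pol II of these genes cannot be told apart either. Atp2a2 carried 4.14 and 3.94 RPKM in the first stretch, 4.88 and 5.69 in the last, and 8.45 and 8.91 over the 5 kb after its annotated end. Over the 5 kb after the end, Pol II lay above both inputs in both replicates at all 7 genes with Pol II. It stood between 4.94 and 10.5 RPKM in replicate 1 and between 6.01 and 10.8 in replicate 2. The share of all genes for which this holds was not computed. Other genes lie within 20 kb of each of the 7, and Pol II of a neighbor cannot be told apart there. In Ryr3 the first stretch held 0.494 and 0.513 RPKM and the last 0.222 and 0.213, and the inputs differed in the same direction, with 0.628 and 0.625 in the first stretch and 0.329 and 0.333 in the last. These differences along a gene are described in both replicates and were not tested.

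**Figure D2:**
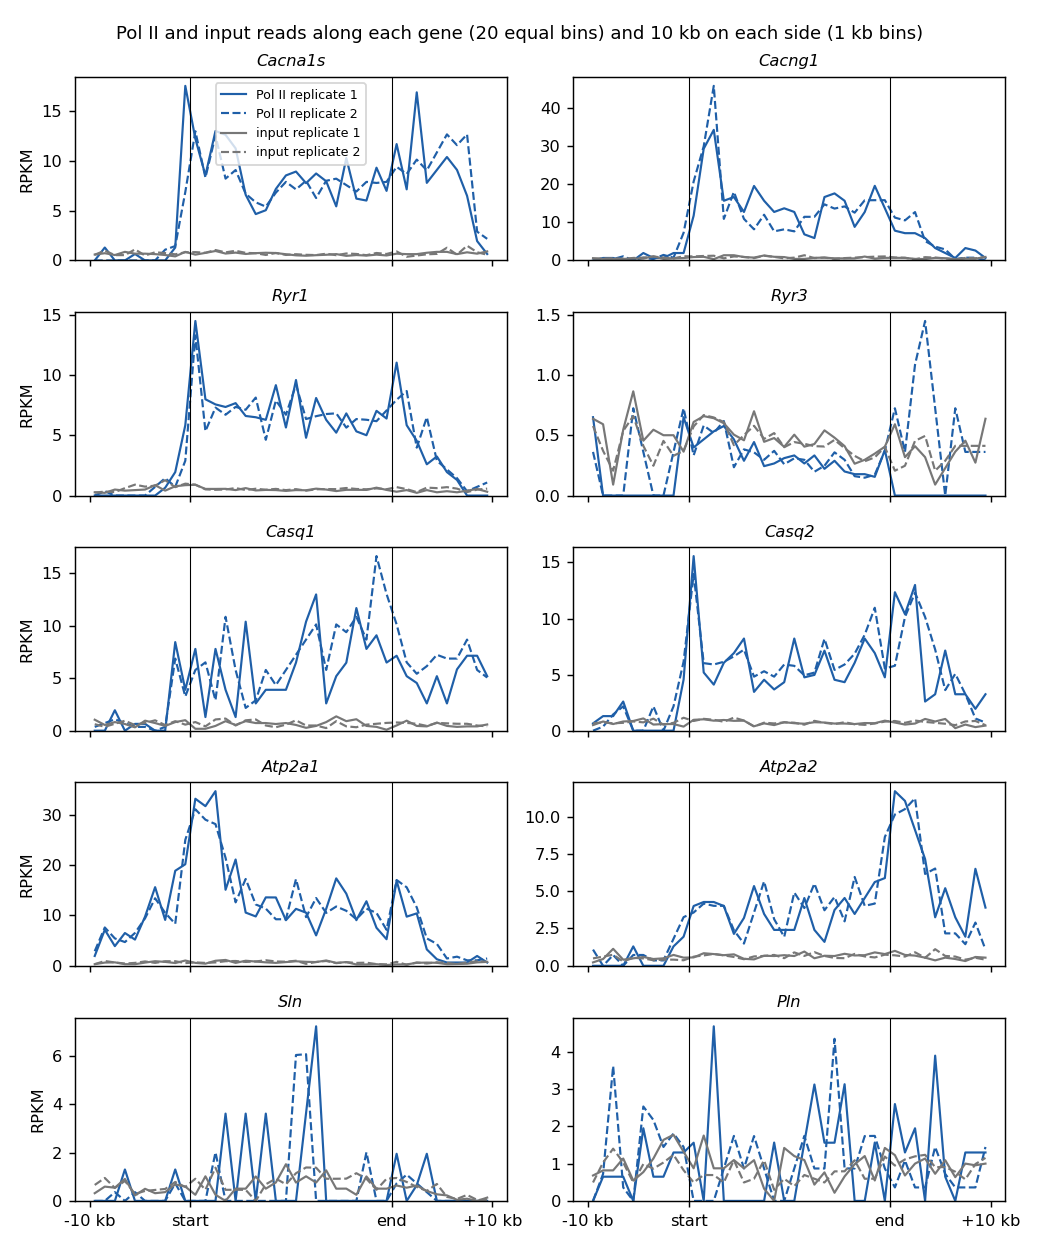
Pol II (blue) and input (grey) RPKM along each gene in 20 equal bins between its start and end, with 1 kb bins over 10 kb on each side, solid for replicate 1 and dashed for replicate 2. Each vertical axis has its own scale and starts at 0. Pol II lies above input along the 7 genes with Pol II, with single bins of Casq1 that differ between the libraries, a high start at Atp2a1, Ryr1 and Casq2 and higher values after the end of Atp2a2 than within it.

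Start-site sequence was available from RefSeq (GRCm38.p6, 250 bases before to 50 after the start) for 6 of the 10 genes. These were Cacna1s, Ryr1, Casq1, Casq2, Atp2a1 and Pln. The 3 shown are the gene with the most Pol II at its start (Atp2a1), the voltage sensor (Cacna1s) and the slow calsequestrin (Casq2), read 5′ to 3′ along each gene. Their RefSeq starts lie 35, -90 and 0 bp downstream of the starts used for counting. Capitals mark the E-box letters CAGCTG or CAGGTG and the Tead letters GGAATG on either strand, the TATA box letters TATAAA on the gene's strand, and the MEF2 consensus.
Atp2a1, chr7:126463024-126463323, minus strand: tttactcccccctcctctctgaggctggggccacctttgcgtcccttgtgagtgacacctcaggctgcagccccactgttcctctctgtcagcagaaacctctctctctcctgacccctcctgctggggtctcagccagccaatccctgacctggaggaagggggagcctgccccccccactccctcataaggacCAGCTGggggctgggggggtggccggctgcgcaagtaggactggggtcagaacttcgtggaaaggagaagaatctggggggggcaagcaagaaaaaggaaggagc
Cacna1s, chr1:136052561-136052860, plus strand: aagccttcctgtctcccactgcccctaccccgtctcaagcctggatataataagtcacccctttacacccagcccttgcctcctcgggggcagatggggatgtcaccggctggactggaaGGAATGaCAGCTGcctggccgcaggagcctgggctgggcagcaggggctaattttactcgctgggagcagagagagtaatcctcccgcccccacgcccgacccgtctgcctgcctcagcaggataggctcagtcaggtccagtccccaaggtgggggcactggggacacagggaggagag
Casq2, chr3:102086165-102086464, plus strand: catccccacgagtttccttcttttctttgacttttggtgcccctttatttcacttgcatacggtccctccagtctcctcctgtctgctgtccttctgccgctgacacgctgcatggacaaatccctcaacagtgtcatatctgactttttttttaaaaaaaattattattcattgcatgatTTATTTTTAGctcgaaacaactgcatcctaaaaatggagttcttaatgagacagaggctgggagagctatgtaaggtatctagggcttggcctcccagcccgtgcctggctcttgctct

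An E-box was present in 4 of the 6 promoters (Cacna1s, Casq1, Atp2a1 and Pln), and in 32.9% of the 32851 promoters of the table. The MEF2 consensus was found at Casq2 alone of the 6, with a share of 3.19% over all promoters. The Tead letters were found at Cacna1s (14.7% of all promoters) and TATAAA at Pln (8.32%). The 4 genes with an E-box include Pln, which did not pass for Pol II at its start with scaling to mapped reads. Ryr1, with 33.8 and 31.9 RPM at its start, had no match to any of these letters.

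The Sox6 libraries were then read at the called peaks. The common peak before Sln, at chr9:53696482-53696541, lies outside any gene, between Gm11147 and Sln. In the 450 bp around its center the Sox6 libraries held 11 and 8 reads, or 3.68 and 5.45 RPM, and the inputs 8 and 15 reads, or 0.364 and 0.619 RPM. Both Sox6 values lay above both inputs. The log2 ratio was 3.25 ± 0.49 (limma, adjusted p = 6.99e-11), at rank 704 among the common peaks, of which 96.7% passed. The peak was called from these same reads, so this p does not stand as independent evidence for it.

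A further check takes the peaks of one replicate and counts reads in the other. At Sln this check is not independent either, since each 450 bp window reaches over the interval that the other replicate called. The replicate 1 peak at Sln, 1597 bp before the start, held 6 Sox6 reads of replicate 2 against 16 input reads (exact binomial test, two-sided, adjusted p = 0.00252). The replicate 2 peak, 1447 bp before the start, held 11 Sox6 reads of replicate 1 against 7 input reads (exact binomial test, adjusted p = 2.61e-06). The inputs are 16.5 and 7.36 times as deep as these Sox6 libraries, so that few Sox6 reads exceed many input reads. The intervals called in the replicates do not share a base. Of all peaks, 67.0% of those of replicate 1 and 84.4% of those of replicate 2 passed this test in the other replicate.

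Pol II at the Sln peak was low, with 2 and 1 reads in the 450 bp. Over the 5 kb before Sln, Sox6 stood at 1.54 and 1.63 RPKM, against 0.492 and 0.544 in the inputs and 0.260 and 0.145 in the Pol II libraries. At the start itself, replicate 1 held 10 Sox6 reads and replicate 2 held 1.

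**Figure D3:**
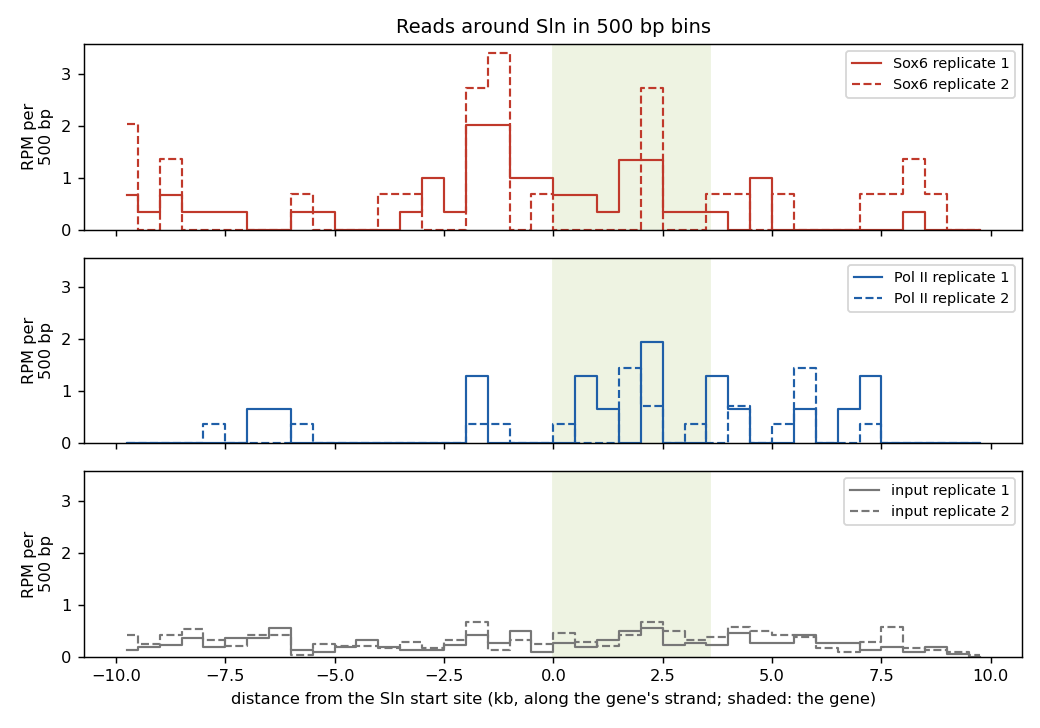
RPM in 500 bp bins over 10 kb on each side of the Sln start (horizontal axis, distance in kb along the gene's strand), for Sox6 (red), Pol II (blue) and input (grey), solid for replicate 1 and dashed for replicate 2, with the gene shaded. The highest Sox6 values of replicate 2, 2.72 and 3.40, and of replicate 1, 2.01, fall in the 2 bins from 2 to 1 kb before the start, a value of 2.72 also occurs in 1 bin of replicate 2 within the gene, and single bins rest on at most 6 Sox6 reads.

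In the lists as a whole, 4.34% of the 22935 genes had a common peak in or within 20 kb, as did 1 of the 10 genes here. The replicate 1 list reached 3 of the 10 genes (Cacna1s, Ryr3 and Sln), where 9.66% of all genes had such a peak, and the replicate 2 list reached 2 (Casq2 and Sln), where 6.70% did. The outermost peak within the limit was that of Sln, at 1597 bp. The nearest beyond the limit were 2 replicate 1 peaks after the end of Ryr1, at 33818 and 49688 bp, and a replicate 2 peak 45027 bp before Cacna1s. Cacng1, Casq1, Atp2a1, Atp2a2 and Pln had no Sox6 peak of any list within 50 kb. At that limit 1635 of the 22935 genes had a common peak, 3544 a replicate 1 peak and 2515 a replicate 2 peak. In each list most genes thus had none. The share of all genes without a peak of any list was not computed, so the absence only describes these genes.

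Of the 5 intronic peaks called in 1 replicate, 2 passed in the reads of the other. Of all peaks, 67.0% of the replicate 1 list and 84.4% of the replicate 2 list did. In intron 1 of Casq2, 14083 bp after the start, replicate 1 held 8 Sox6 reads and replicate 2 held 5, with 7 and 15 input reads (exact binomial test, adjusted p = 0.000222). In intron 1 of Ryr3, 54197 bp after the start, the Sox6 libraries held 9 and 4 reads and the inputs 8 and 13 (exact binomial test, adjusted p = 0.0224). Both sites thus had Sox6 above input in both replicates, of which only the one that did not call the peak is an independent check.

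The remaining 3 did not pass in the reads of the other replicate. The Cacna1s peak in intron 2 held 10 Sox6 reads in replicate 1 and 1 in replicate 2 (exact binomial test, adjusted p = 0.578). The Casq2 peak 17603 bp after the start held 3 Sox6 reads in each replicate against 7 and 8 input reads (exact binomial test, adjusted p = 0.121). The Casq2 peak 26043 bp after the start held 2 Sox6 reads in replicate 1 and 8 in replicate 2, or 0.670 and 5.45 RPM against inputs of 0.182 and 0.454 (exact binomial test, adjusted p = 0.17). At all 3 peaks both Sox6 libraries lay above both inputs in RPM, on few reads. Pol II was present under the peaks at Cacna1s and Casq2, genes rich in Pol II throughout, with 3 to 14 reads per library, and at the Ryr3 peak with 3 and 2. When reads were counted in the deposited interval in place of 450 bp, 2 of the 7 peaks of the replicate lists passed in the other replicate. In 450 bp windows 4 passed, both Sln entries among them. In the deposited interval 31.2% of all replicate 1 and 45.6% of all replicate 2 peaks passed.

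**Figure D4:**
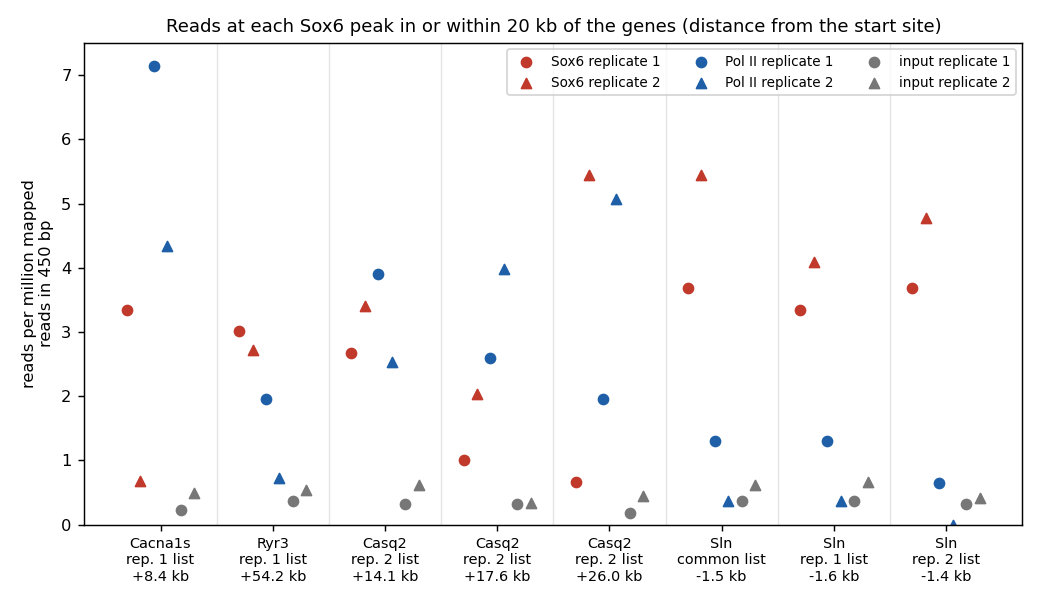
RPM in 450 bp at each Sox6 peak in or within 20 kb of the 10 genes (vertical axis from 0), for both libraries of Sox6 (red), Pol II (blue) and input (grey), with the list that called the peak and its distance from the start site below. Both Sox6 libraries exceed both inputs at every entry shown, by the least at Cacna1s, where the Sox6 points stand at 3.35 and 0.681 and the input points at 0.228 and 0.495.

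At the 10 start sites themselves, Sox6 did not pass the test for any gene. Over all genes, 25 of 19277 passed (0.130%), with 2538 at an unadjusted p under 0.05. The members held between 0 and 11 Sox6 reads per library in the start window. Atp2a1 had 3.68 and 2.72 RPM against inputs of 1.59 and 1.24 (log2 ratio 1.27 ± 0.41; limma, adjusted p = 0.222), and Cacng1 had 3.68 and 4.77 RPM against 1.55 and 2.27 (1.23 ± 0.39; limma, adjusted p = 0.218). In a window of 500 bp on each side, Casq1 passed with a log2 ratio of 1.98 (limma, adjusted p = 0.0175), as did 3.12% of the 10157 genes tested there. Without Sox6 replicate 1 or 2 the test called 7 or 5 of the 10 genes higher, where 38.6% or 18.8% of all genes were, and Pln lower, but the lone Sox6 library was then assumed to vary as little as the deep inputs.

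Over gene bodies, 5 of the 10 genes had more Sox6 than input, where 5.17% of all genes did. Cacng1 stood at 1.76 and 1.89 RPKM against inputs of 0.790 and 0.877, a log2 ratio of 1.15 ± 0.17 (limma, adjusted p = 0.0189). Ryr1 stood at 0.902 and 1.03 RPKM against 0.514 and 0.546, a log2 ratio of 0.86 ± 0.10 (limma, adjusted p = 0.0161). Casq1 (0.95 ± 0.22), Casq2 (0.74 ± 0.17) and Cacna1s (0.73 ± 0.11) also passed, with limma adjusted p of 0.0431, 0.0431 and 0.0189. At each of these 5 both Sox6 libraries lay above both inputs, and at each the log2 ratio was smaller than that of Pol II.

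Atp2a1 had a log2 ratio of 0.54 ± 0.21 (limma, adjusted p = 0.138) and Sln of 0.61 ± 0.40 (limma, adjusted p = 0.352). Atp2a2 (-0.07 ± 0.13), Ryr3 (-0.20 ± 0.08) and Pln (-0.89 ± 0.40) lay below 0. Pln held 15 and 3 Sox6 reads, the fewest beside Sln with 16 and 4. The median of the 10 genes was 0.67 and that of all genes 0.18.

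The 5 genes with more Sox6 over the body were among the 7 with more Pol II. All 7 fell in the highest 10% of genes by Pol II ratio, a set in which the median Sox6 log2 ratio was 0.63 and 16.6% of genes had more Sox6 than input. Cacna1s and Casq2 lie near that median. The Sox6 and the Pol II comparison share their inputs, and the part of Pol II level in the Sox6 result was not tested. None of the 5 passed with a pseudocount of 1 RPM (18 genes called in all), without the variance trend (0 genes, 4347 at an unadjusted p under 0.05) or with all libraries thinned to one depth (0 genes, 2952 at an unadjusted p under 0.05). Under these 3 alternatives the log2 ratios of the 5 genes were 0.68 to 1.24 (limma, adjusted p = 0.0511 to 0.278). Fewer of the 5 passed when either input library was left out.

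**Figure D5:**
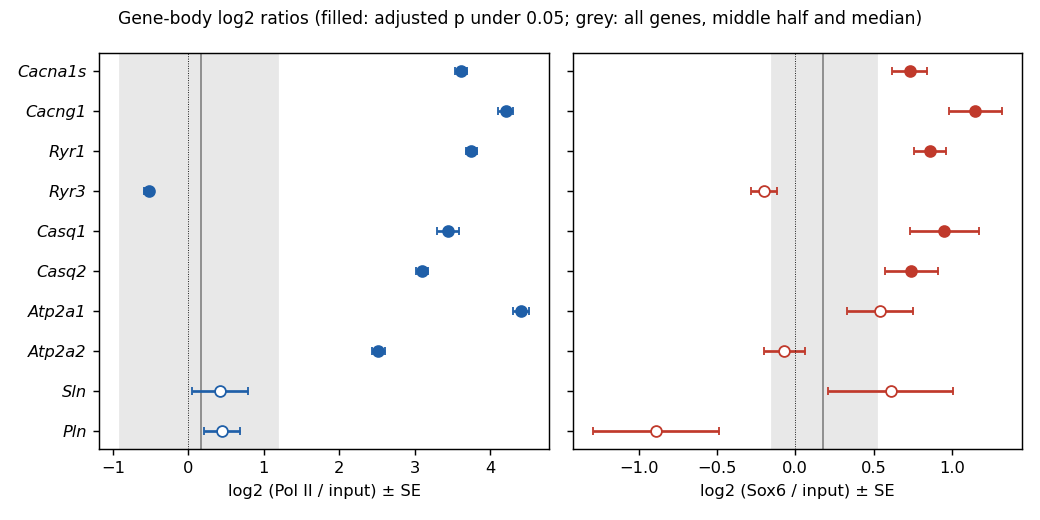
Log2 ratios over gene bodies of Pol II to input (left) and of Sox6 to input (right) for the 10 genes. Bars give the SE of limma (2 libraries per group, variance shared among genes) and filled points a limma adjusted p under 0.05. The interquartile range of all 19836 genes is shaded in grey, with their median as a line. On the left 7 genes stand at 2.52 or above, and on the right the values range from -0.89 at Pln to 1.15 at Cacng1.

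Among 35 other genes of calcium handling in muscle, 23 had more Pol II than input over the body, 7 had less and 5 passed in neither direction, where 40.4% of all genes had more and 25.6% had less, with a median log2 ratio of 1.34. With scaling to reads outside peaks 32 had more and 0 had less, with a median of 2.60, where 64.2% of all genes had more and 2.51% had less. The most Pol II was found at Hrc, which encodes a calcium-binding protein of the sarcoplasmic reticulum (3.78 ± 0.21), at Jph2, which encodes a junctophilin that ties the reticulum to the T-tubule (3.77 ± 0.07), and at Jsrp1, which encodes a protein of the triad junction (3.77 ± 0.18). The least was found at Ryr2, the cardiac ryanodine receptor (-1.47 ± 0.10), Atp2a3, a pump of non-muscle cells (-1.02 ± 0.34), and Cacna1c, the pore subunit of the cardiac calcium channel (-0.88 ± 0.07). With the other scaling Ryr2 was at -0.21, Atp2a3 at 0.23 and Cacna1c at 0.38, below the shifted median of 1.42. Ryr2 was at 0.0962 and 0.0830 RPKM, below Ryr3.

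Sox6 exceeded input over the body of 6 of the 35, where 5.17% of all genes did, and was lower at 1, with a median of 0.17. With scaling to reads outside peaks 10 were higher and 0 lower, with a median of 0.33, where 10.7% of all genes were higher and their median was 0.34, and no gene was called with thinning or without the variance trend. A common Sox6 peak lay in or within 20 kb of 3 of the 35, where 4.34% of all genes had one, with 1 peak each at Stim1, the calcium sensor of the reticulum for store-operated entry, and at Itpr1 and Itpr2, inositol trisphosphate receptors. Pol II over these was 0.59 ± 0.07 at Stim1, -0.28 ± 0.08 at Itpr1 and -0.57 ± 0.06 at Itpr2 on the log2 scale, with 1.84, 0.97 and 0.69 under the other scaling.

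The cells' label was checked by marker genes. All 10 myotube markers had more Pol II than input over the body (median log2 ratio 5.67), none of 5 fibroblast and 3 endothelial markers did, and 1 of 6 cardiac markers (Nppa) and 1 of 3 smooth muscle markers (Smtn) did. Of the precursor markers Pax7 (1.23 ± 0.09) and Myf5 (2.38 ± 0.26) did, and Pax3 did not. Of the blood markers Cd68 did and Ptprc did not, with Hbb-b1 under the minimum of reads, and of 4 Schwann cell and neuron markers Tubb3 did. Of all genes 40.4% did. With scaling to reads outside peaks, under which 64.2% of all genes did, the numbers were 10 for myotube, 3 for precursor (Pax3 included), 1 for fibroblast, 2 for endothelial, 2 for cardiac, 3 for smooth muscle, 1 for blood and 2 for Schwann cell and neuron markers. The libraries held 1468604 to 2985437 (Sox6), 1538757 to 2762155 (Pol II) and 21973495 to 24249850 (input) mapped reads.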

How the data were processed

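Chromatin immunoprecipitation followed by sequencing was carried out by the authors on 6 libraries: Sox6, Pol II and input, 2 replicates each. Per the labels, fragments were amplified by 18 cycles of PCR, selected at 300 to 600 bp and sequenced from 1 end. According to the submitters' processing notes and the methods, reads were aligned with Bowtie 0.12.5 to mouse NCBI Build 37 (mm9), uniquely mapped reads were retained, and peaks were called with SISSRs in each ChIP library against input. Sox6 peaks common to both replicates were found by the authors with the ChIP-Seq Tool Set. The deposited files hold read positions and peak intervals. The score column of the deposited Pol II peak files was not used, as nothing names its quantity. The methods call the ChIP experiments independent but do not say that the replicates came from separate cultures, so p-values cannot be taken beyond these libraries. Limma p-values and SE also rest on a variance shared among genes, and do not measure the spread of a single gene's libraries alone. For Pol II over Cacna1s the limma adjusted p was 1.65e-08 with the variance trend and 0.00271 without it. The SE was 0.08 with the trend and 0.14 without it.

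Reads were counted by their 5′ ends in the gene (ends of the longest GENCODE vM1 model, same build), within 1 kb of its start and in 450 bp at Sox6 peaks. Counts plus 0.5 reads were scaled to mapped reads (1468604 to 24249850 per library), log2 transformed and compared with input by limma 3.58.1 (R 4.3.3) with a variance trend, over genes with at least 20 input reads, with Benjamini-Hochberg adjustment over all genes tested and a threshold of 0.05. The files hold positions and not counts per gene, and limma on log2 values of the counts made here was chosen in place of a count model. Peaks of 1 replicate were tested in the reads of the other by an exact binomial test against input. Scripts were tested on simulated data. Repeated positions made up 2.96% to 7.88% of reads, and one input had reads of 36 bp where the others had 39 bp. Since the input libraries are deeper, 0.5 added reads raise the ratio to input of windows with few reads. Binomial p-values cover counting error only.

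The 10 genes, the 35 other calcium-handling genes and the marker lists were chosen with earlier results of these data known. Named beside the 10 genes are the 3 of the 35 with the most and the 3 with the least Pol II, those with a common Sox6 peak, and Actb. Alternatives were another pseudocount, scaling to reads outside peaks, repeated positions counted once, other filters and windows, a replicate block, no variance trend, each library left out, other distances for peaks and, added after seeing the data, thinning to one depth and leaving out stretches shared between genes.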

Additional observations from a re-analysis of the deposited data

How the results depend on the processing

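The 7 genes with more Pol II than input over the body passed under all 14 alternatives run for each. With scaling to reads outside peaks, 12740 genes had more and 498 less Pol II over the body. Under it 10 members were higher, no member was lower (0) and Ryr3 was at 0.73. With thinning, 2845 genes were lower, and leaving out a library gave 3049 to 6900. The values of members that did not pass changed sign in places: over the body Sln under thinning (Pol II -0.10, Sox6 -0.55) and Atp2a2 under background scaling (Sox6 0.10), and at the start Ryr3 and Pln under thinning (Pol II -0.37 and -0.12), Sln under background scaling (Pol II 0.91) and Ryr1 for Sox6 (-1.12 thinned, -0.09 with 1 RPM, -0.69 in 500 bp). Leaving out a library gave Pol II start ratios of -1.14 to 0.44 at Sln and -0.28 to 0.85 at Pln, and Sox6 start ratios of -0.31 to 0.36 at Ryr1, -0.50 to 1.26 at Atp2a2 and -0.23 to 1.55 at Sln.

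For Sox6 over the body, thinning and no variance trend called 0 genes and 0 members, 1 RPM called 18 genes and 0 members, no filter called 2266 genes and background scaling 2126. Leaving out a library called 180 to 7444 genes and 2 to 7 members, the high numbers being those without a Sox6 library, where the lone one is assumed to vary like the inputs. For Sox6 at starts, where 25 genes were called, thinning, no trend and 1 RPM called 0, at least 100 input reads 4, background scaling 4, repeated positions counted once 39, no filter 737 and 500 bp windows 317 with 1 member, and leaving out a library called 0 to 7449 genes and 0 to 7 members. For Pol II at starts, thinning called 1593 genes and 4 members, and at least 100 input reads 228 of 290 genes. Counting the peaks of the replicate lists in the deposited interval called 2 of 7. Asking the replicates' peaks to share a base left 0 members with a common peak. Reads in Pol II peaks only put 3 members above 10% of Actb, where the share of all genes was not computed. The cause of these changes was not tested.

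With the replicate number as a block (replicate block), 2889 genes were called for Sox6 over the body and 339 at starts, with 5 and 0 members called higher, and 7 and 7 for Pol II, the numbers without it, and with Ryr3 also called lower for Sox6 over the body. Deviations of same-numbered libraries from their group means correlated at -0.037 to 0.043. At these depths counting noise could hide a pairing, so these correlations cannot decide whether the numbers pair the libraries. The paper took the input of each ChIP experiment as background for its peaks, and the exact binomial tests used the input of the same number. The Sln common peak passed under all alternatives, at 1.89 to 3.61. Limits are the depth of the ChIP libraries, 1468604 to 2985437 reads, which leaves 0 to 11 Sox6 reads at a member's start, and 2 libraries per group.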

Other observations

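Internal starts were counted as well, within 1 kb on each side. They are the positions inside the genes where other annotated models begin and whose windows do not overlap that of the start used above. The models of Cacna1s and Atp2a1 counted here are flagged as start not found. Their positions mark where a model begins and need not be start sites. The 7 internal starts of Cacna1s, Casq1, Casq2 and Atp2a1 held 12 to 62 Pol II reads per library, and all lie in genes with Pol II throughout. The 4 internal starts of Ryr3 held 0 to 5 Pol II reads against 15 to 39 input reads in libraries many times as deep.

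The following genes of the 35 were chosen after their values were seen. Camk2a, which encodes a calcium-dependent kinase, had a Pol II log2 ratio over the body of 2.32 ± 0.09 (limma, adjusted p = 1.76e-07), while Camk2b was at 0.24 ± 0.10 (limma, adjusted p = 0.063). Slc8a1 and Slc8a3, sodium-calcium exchangers of the cell membrane, were at -0.29 ± 0.09 and -0.46 ± 0.11. Pvalb, which encodes the calcium buffer parvalbumin of adult fast fibers, was at 0.61 ± 0.22 (limma, adjusted p = 0.0373) with 14 and 26 Pol II reads. With scaling to reads outside peaks, under which the median of all genes moved from 0.16 to 1.42, Slc8a1 and Slc8a3 were at 0.96 and 0.80, and Camk2b passed (limma, adjusted p = 1.67e-06).

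The replicate 2 peak 45027 bp before Cacna1s, outside the limit of 20 kb, held 4 Sox6 reads in replicate 1 and 10 in replicate 2 against 3 and 10 input reads, and passed in the reads of replicate 1 (exact binomial test, adjusted p = 0.00716).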
